A study of Mus musculus with 12 samples.

Results

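The heat-shock chaperone set holds 10 genes: Hspa1a, Hspa1b, Hspa8, Dnajb1, Dnaja1, Hsph1, Hsp90aa1, Hsp90ab1, Bag3 and Hsf2. They were chosen by gene symbol, and the brightest probe set annotated to each symbol stood for the gene. Of the 10, 9 had an annotated probe set, and all 9 were among the 11345 genes tested. Hsp90ab1 was named for no probe set in the annotation used, so it has no value here.

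The study measured skeletal muscle RNA of 12 mice of 16 weeks on 12 one-colour Affymetrix arrays. GPR120, the product of Ffar4, senses long-chain fatty acids at the cell surface. The 4 groups of 3 mice were GPR120 knockout (KO) on high fat diet (HFD), KO on normal diet (ND), wild type (WT) on HFD and WT on ND, all on a mixed 129/Sv and C57BL/6 background. No source used here gives the knockout allele, the sex, the muscle sampled, or the make-up and duration of the diets, and nothing says that the mice came from separate litters or cages, so p-values measure the spread between these samples. Mouse numbers in the labels fall in separate ranges for the 4 groups, so diet or genotype and any cohort or litter cannot be told apart.

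Heat-shock proteins are chaperones that keep other proteins folded. Hsp70 proteins bind unfolded stretches, Hsp40 (DnaJ) proteins hand clients to them and drive their ATPase, nucleotide exchange factors reset them, and Hsp90 proteins finish the folding of kinases and hormone receptors. Some members are made at all times, while others are transcribed on demand by heat-shock factors after heat, exercise, oxidants or other protein damage. In contracting muscle the system guards the sarcomere, where Bag3 links Hsp70 to the removal of damaged filament proteins.

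By textbook knowledge the inducible members are Hspa1a and Hspa1b (Hsp70), Dnajb1 and Dnaja1 (Hsp40), Hsph1 (Hsp110, a nucleotide exchange factor), Hsp90aa1 (Hsp90 alpha) and Bag3. Hspa8 (Hsc70) and Hsp90ab1 (Hsp90 beta) are their constitutive relatives, and Hsf2 is a heat-shock transcription factor. The set therefore also holds genes that its name does not cover. A value below is a log2 MAS5 signal, and levels of different genes are not compared, since probe sets differ in brightness for the same amount of RNA.

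Heat-shock factors bind repeats of the unit GAA in alternating orientation. The windows below are shown because the members' responses to diet differed and their start regions can be set side by side. They run from 250 bases before the annotated start to 30 after it, 5′ to 3′ on the gene's strand, from RefSeq on GRCm38.p6. Capitals mark matches to GAANNTTC or TTCNNGAA, each of which reads the same on both strands. Hspa1a lies at chr17:34972127-34972406 and Hspa1b at chr17:34959209-34959488, both on the minus strand. Dnajb1 lies at chr8:83607925-83608204 and Dnaja1 at chr4:40722218-40722497, both on the plus strand, and Hsph1 at chr5:149636286-149636565 on the minus strand.
Hspa1a: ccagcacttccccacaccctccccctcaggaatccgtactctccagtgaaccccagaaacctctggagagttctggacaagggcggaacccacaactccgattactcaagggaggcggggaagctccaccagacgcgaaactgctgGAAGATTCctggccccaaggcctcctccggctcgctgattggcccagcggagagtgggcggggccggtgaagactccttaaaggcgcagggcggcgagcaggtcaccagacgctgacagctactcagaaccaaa
Hspa1b: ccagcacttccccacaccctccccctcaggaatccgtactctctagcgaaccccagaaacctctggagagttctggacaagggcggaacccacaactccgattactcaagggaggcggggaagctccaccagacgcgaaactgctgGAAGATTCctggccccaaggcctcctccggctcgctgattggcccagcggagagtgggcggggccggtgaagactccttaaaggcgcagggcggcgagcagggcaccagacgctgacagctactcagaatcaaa
Dnajb1: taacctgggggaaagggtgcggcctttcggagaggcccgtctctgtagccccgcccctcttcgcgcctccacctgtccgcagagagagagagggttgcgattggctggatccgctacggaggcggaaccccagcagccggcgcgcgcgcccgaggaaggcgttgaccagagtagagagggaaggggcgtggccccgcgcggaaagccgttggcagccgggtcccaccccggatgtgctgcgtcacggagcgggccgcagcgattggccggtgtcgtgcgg
Dnaja1: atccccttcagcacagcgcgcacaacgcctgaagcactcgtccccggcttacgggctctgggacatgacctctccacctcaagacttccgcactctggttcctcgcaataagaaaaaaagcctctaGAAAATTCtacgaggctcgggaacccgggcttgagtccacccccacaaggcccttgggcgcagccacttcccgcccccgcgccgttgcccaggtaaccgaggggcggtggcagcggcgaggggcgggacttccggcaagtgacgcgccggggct
Hsph1: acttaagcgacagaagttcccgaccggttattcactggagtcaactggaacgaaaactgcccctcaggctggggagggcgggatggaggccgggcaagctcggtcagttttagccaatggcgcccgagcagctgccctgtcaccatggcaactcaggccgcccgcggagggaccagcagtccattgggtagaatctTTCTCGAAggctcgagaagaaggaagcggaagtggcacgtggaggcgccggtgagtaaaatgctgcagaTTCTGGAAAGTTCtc

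Hspa1a and Hspa1b are neighbouring copies on chromosome 17, and their windows of 300 bases differed at 4 positions. Each held 1 match, GAAGATTC, from −104 to −97 relative to the start. In Dnaja1 the match GAAAATTC lay at −124 to −117. The shown Hsph1 window held TTCTCGAA at −54 to −47 and a run of 2 overlapping matches, TTCTGGAA and GAAAGTTC, from 16 to 28 bases after the start. That run holds 3 units in a row. The windows of Dnajb1 held no exact match to either motif. Only exact matches were searched, so imperfect repeats were not counted in any window.

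RefSeq promoter windows were at hand for 7 of the 10 members, 11 windows in all, and Hspa8, Hsp90aa1 and Hsp90ab1 had no entry. Of the 7, 5 held a GAANNTTC or TTCNNGAA match in at least 1 window: Hspa1a, Hspa1b, Dnaja1, Hsph1 and Bag3. The match of Bag3 lay 43 to 50 bases after the start, and that of Dnaja1 was in 1 of its 3 windows. Hspa1a and Hspa1b, as near-identical copies, are not independent cases. Such a match was found in 14.1% of the 9197 tested genes with a window, and in 15.1% of all 32851 windows. Hsph1 alone among the 7 held the motif of 3 units in a row, searched on both strands, which 0.603% of all windows hold and which contains the shorter one. A match is a string of letters in this window and was not tested as a binding site.

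The genotype labels could not be checked through Ffar4, whose only probe set was dim. It averaged 2.31 ± 1.18 in KO on HFD, 2.48 ± 1.89 in KO on ND, 1.41 ± 0.93 in WT on HFD and 0.23 ± 1.86 in WT on ND (SD, n = 3), below the intensity filter of 3.78. All 10 muscle fibre markers, among them Acta1, Ckm and Ttn, were bright, with means between 12.29 (Des) and 13.97 (Tnnt3). The T-cell marker Cd3e, the B-cell marker Cd79a and the haemoglobin gene Hba-a1 stayed below the filter. Other leukocyte markers, S100a8 (mean 5.31), S100a9 (4.56) and Ptprc (6.33), and the erythroid marker Alas2 (4.54) lay above it. Pairs of arrays correlated at 0.940 to 0.977 across genes, and no pair held identical values. With 3 arrays per group, their number limits the precision of every value.

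Most of the chaperone transcripts were lower on the high fat diet when the genotypes were averaged. Of the 7 inducible members 6 passed in that average, and 3 of 7, Hspa1a, Hspa1b and Dnajb1, passed in KO (1.88% of all genes were called lower) and in WT (2.99%). In all, 8 of the 9 measured members fell in the average, 0 rose and 1, Hsph1, did not pass the test (limma, Benjamini-Hochberg adjusted p under 0.05 over 11345 genes). Over all genes 6.19% were called lower and 7.49% higher in that comparison. The largest falls were in Dnajb1, at 9.87-fold lower on HFD, Hspa1a, at 7.22-fold lower, and Hspa1b, at 6.20-fold lower. By size of decrease they ranked 3, 8 and 11 of the 11345 genes tested. In bulk muscle, fewer cells of a type and less RNA per cell cannot be told apart.

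**Figure D1:**
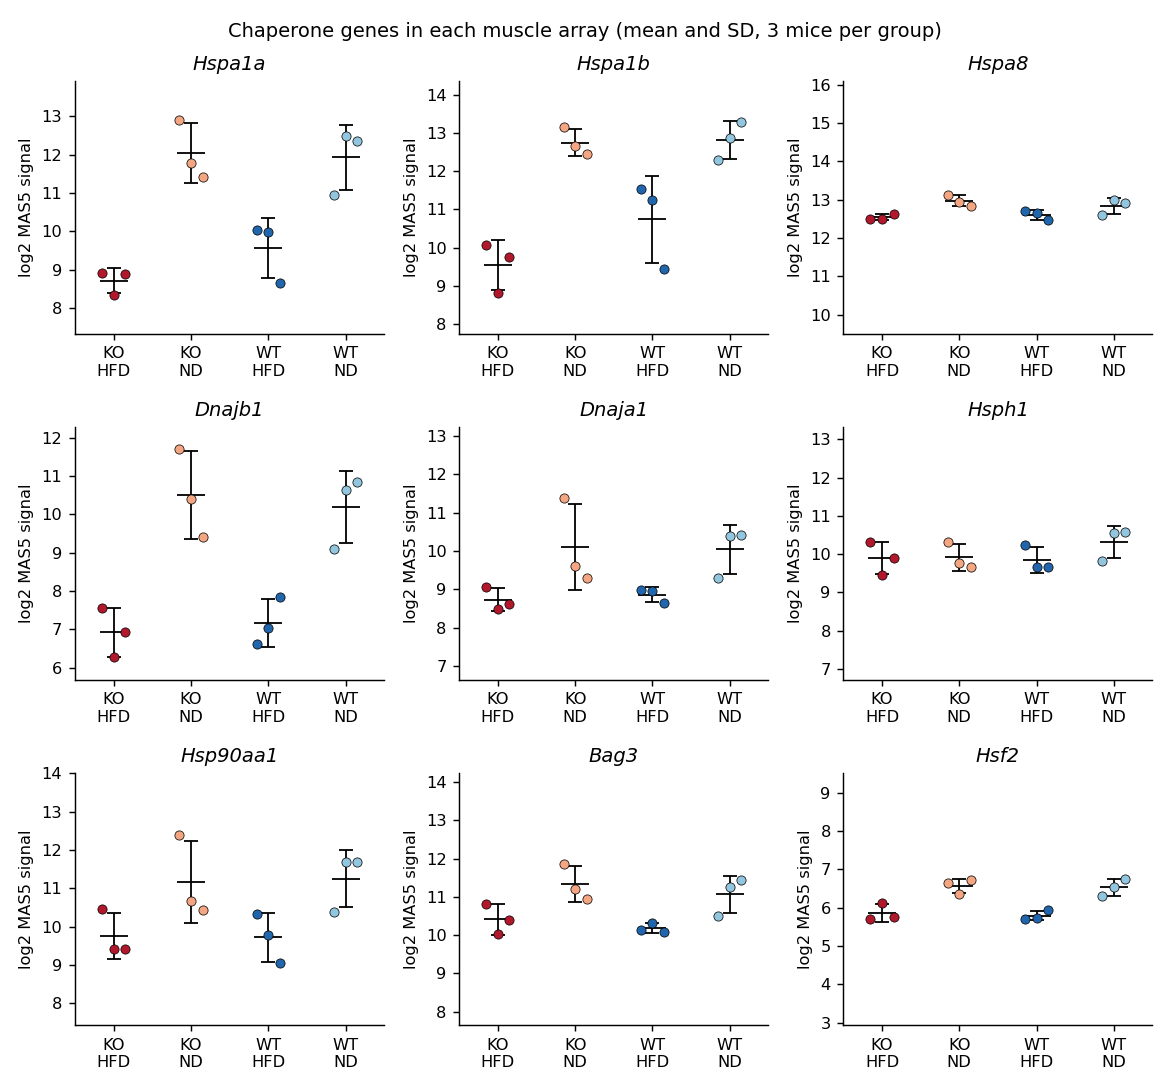
Log2 MAS5 signal (vertical axis) of each measured chaperone gene in each of the 12 arrays, with points for mice and bars for the mean and SD of 3 mice; every panel spans the same 6.6 log2 units. Hspa1a, Hspa1b, Dnajb1, Dnaja1 and Hsf2 sat lower in all 6 HFD mice than in all 6 ND mice, while Hsph1 groups overlapped.

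Hspa1a, the stress-induced Hsp70, read 8.92, 8.33 and 8.87 in KO mice on HFD, against 12.92, 11.79 and 11.41 in KO mice on ND. In WT it read 10.04, 9.97 and 8.66 on HFD, against 10.95, 12.48 and 12.36 on ND. The diets did not overlap in either genotype, and the lowest ND mouse was a WT mouse at 10.95. The log2 difference was −3.33 ± 0.46 in KO (SE, adjusted p = 0.00277, limma) and −2.38 ± 0.46 in WT (adjusted p = 0.0108, limma).

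Its copy Hspa1b read 10.08, 8.82 and 9.76 in KO mice on HFD, against 13.14, 12.65 and 12.44 in KO mice on ND. The WT values were 11.54, 11.24 and 9.44 on HFD, against 12.29, 12.88 and 13.28 on ND. WT mouse 3 on HFD stood well below its group mates, and the diets did not overlap in either genotype. The log2 difference was −3.19 in KO (SE 0.46, adjusted p = 0.00324, limma) and −2.08 in WT (SE 0.46, adjusted p = 0.0198, limma). Since the genes are near-identical copies, their probe sets can bind each other's RNA and their values are not independent. The other Hspa1b probe sets gave averaged diet differences of −3.03 and −3.25, against −2.63 for the brightest.

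Dnajb1, the main inducible Hsp40, read 7.56, 6.28 and 6.92 in KO mice on HFD, against 11.70, 10.39 and 9.41 in KO mice on ND. In WT mice it read 6.61, 7.05 and 7.85 on HFD and 9.10, 10.63 and 10.85 on ND. More than 1 log2 unit separated the highest HFD mouse from the lowest ND mouse. Its log2 difference was −3.58 in KO (SE 0.56, adjusted p = 0.00408, limma) and −3.03 in WT (SE 0.56, adjusted p = 0.00845, limma). The second Dnajb1 probe set gave an averaged difference of −3.03.

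Dnaja1, a partner of Hsp70 that is present at rest and rises with stress, read 9.06, 8.49 and 8.62 in KO mice on HFD, against 11.39, 9.61 and 9.30 in KO mice on ND. In WT it read 8.99, 8.96 and 8.63 on HFD, against 9.30, 10.39 and 10.42 on ND. The 6 HFD mice lay below the 6 ND mice, but the ND mice spread widely. Averaged over genotypes it fell by 1.28 (SE 0.30, adjusted p = 0.0151, limma). Neither genotype alone passed (−1.38 in KO, adjusted p = 0.0867, and −1.18 in WT, adjusted p = 0.123). Its dimmer probe sets gave averaged differences of −0.95 and −1.18. Over all probe sets these did not pass (adjusted p = 0.0684 and 0.0624, limma), while the brightest did (adjusted p = 0.0165).

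Hsp90aa1, the inducible Hsp90, showed a like pattern, with diets that overlapped in KO but not within WT. It read 10.45, 9.40 and 9.41 in KO mice on HFD, against 12.39, 10.68 and 10.42 in KO mice on ND, so that KO mouse 1 on HFD lay just above KO mouse 3 on ND. WT mice read 10.33, 9.78 and 9.05 on HFD, against 10.38, 11.68 and 11.69 on ND. The averaged difference was −1.47 ± 0.35 (SE, adjusted p = 0.0160, limma), with −1.41 in KO (adjusted p = 0.133) and −1.53 in WT (adjusted p = 0.0871). Its next probe sets gave averaged differences of −1.53 and −1.82. A further 2 were below the filter, at −0.49 (adjusted p = 0.775 over all probe sets) and 0.81 (adjusted p = 0.657).

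Bag3, the Hsp70 partner that directs damaged sarcomere proteins to autophagy, read 10.83, 10.03 and 10.38 in KO mice on HFD, against 11.86, 11.22 and 10.95 in KO mice on ND. WT mice read 10.14, 10.33 and 10.08 on HFD, against 10.51, 11.24 and 11.44 on ND. Within each genotype the diets did not overlap. Bag3 fell by 0.90 on average (SE 0.18, adjusted p = 0.00651, limma), and the effects in KO (−0.93, adjusted p = 0.0594) and WT (−0.88, adjusted p = 0.0610) lay just outside the threshold.

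Hsph1 was the inducible member that did not pass. It read 10.31, 9.47 and 9.90 in KO mice on HFD, against 10.32, 9.76 and 9.66 in KO mice on ND. WT mice read 10.24, 9.66 and 9.66 on HFD, against 9.83, 10.54 and 10.58 on ND. The diets overlapped in both genotypes. Its averaged difference was −0.24 (95% interval −0.63 to 0.14, adjusted p = 0.400, limma), an interval that ends above the point estimates of the other 6 inducible members. The intervals of Bag3 (−1.30 to −0.51) and Dnaja1 (−1.93 to −0.62) overlap that of Hsph1, and the difference between these genes was not tested. Its second probe set gave −0.30.

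The constitutive Hspa8 moved little by its brightest probe set. It read 12.51, 12.51 and 12.63 in KO mice on HFD, against 13.14, 12.94 and 12.85 in KO mice on ND. WT mice read 12.71, 12.67 and 12.47 on HFD, against 12.60, 13.00 and 12.91 on ND. The difference was −0.43 ± 0.11 in KO (SE, adjusted p = 0.0425, limma), −0.22 in WT (adjusted p = 0.238) and −0.32 ± 0.08 averaged (adjusted p = 0.0138), which is 1.25-fold. Dimmer Hspa8 probe sets showed larger averaged differences of −0.59, −0.70 and −0.90, so the size depends on the probe set. Among them −0.59 passed over all probe sets (adjusted p = 0.0165) and the others did not (adjusted p = 0.0687 and 0.0895). The −0.90 came from −1.72 in KO (adjusted p = 0.0473, limma) and −0.09 in WT (adjusted p = 0.964). The interaction of that probe set was not called (adjusted p = 0.535).

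Hsf2, a heat-shock factor active in development and able to pair with Hsf1, was dim but even. It read 5.70, 6.12 and 5.75 in KO mice on HFD, against 6.64, 6.36 and 6.71 in KO mice on ND. WT mice read 5.71, 5.73 and 5.94 on HFD, against 6.31, 6.53 and 6.75 on ND. All 6 HFD mice lay below all 6 ND mice, and the log2 difference was −0.71 in KO (SE 0.18, adjusted p = 0.0425, limma) and −0.74 in WT (SE 0.18, adjusted p = 0.0306, limma). The second Hsf2 probe set, at a mean of 4.36, did not show this: its averaged difference was −0.07 (adjusted p = 0.951).

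By genotype, 5 of 9 members fell with HFD in KO (1.88% of all genes were called lower, 2.66% higher and 4.54% either way) and 4 of 9 fell in WT (2.99% lower, 3.07% higher and 6.06% either way). In neither genotype did a member rise. Hspa1a, Hspa1b, Dnajb1 and Hsf2 were called in both, and Hspa8 in KO. The counts changed when single mice were left out, and so did the calls over all genes. The KO count was 3 without KO ND replicate 1 or 2 (200 and 133 of all genes called, against 515). It was also 3 without KO HFD replicate 1 or 3 (255 and 158 of all genes). The WT count was 1 without WT ND replicate 2 (199 of all genes, against 687) and 2 without WT ND replicate 3 (256). It was 7 without KO ND replicate 1 (644), which enters through the shared spread. Hspa1a, Hspa1b and Dnajb1 stayed called in KO in all 12 such fits, and in WT in 11, 10 and 12. The averaged count stayed at 8 whichever mouse was left out.

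**Figure D2:**
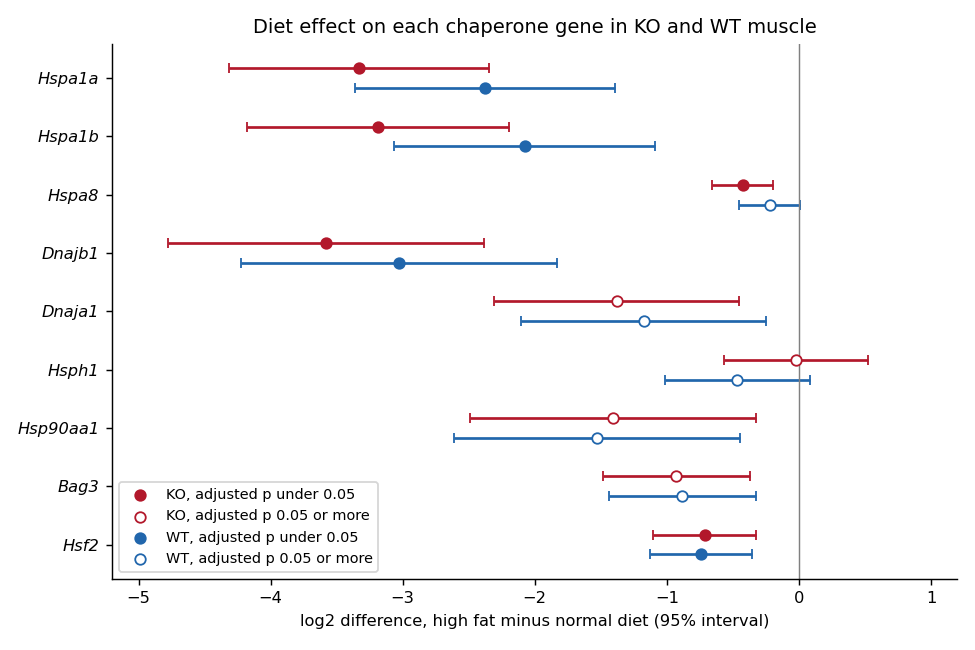
Log2 difference between high fat and normal diet for each gene (horizontal axis) in KO and WT, with 95% intervals from limma; filled points have an adjusted p under 0.05. Differences run from −3.58 for Dnajb1 in KO to −0.02 for Hsph1 in KO, and the KO and WT intervals overlap for every gene.

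The 6 HFD mice lay entirely below the 6 ND mice for 5 of 9 members, against 2.34% of all genes. The members' median averaged log2 difference was −1.28, against 0.06 for all genes tested. Of 23 probe sets annotated to members, 21 passed the filter, and all 21 had a negative averaged difference. The 2 below the filter were not called, so 14 of all 23 were called lower. Over the 45037 probe sets tested, above and below the filter, the share was 2.24%. Several of the 23 measure the same gene, so they are not independent.

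A sign of RNA quality differed between the diets, without overlap in WT. For the beta-actin control probe sets, the 3′ to 5′ difference on the log2 scale was 0.28 to 0.75 in KO on HFD, 0.26 to 0.48 in KO on ND, 0.58 to 0.64 in WT on HFD and 0.09 to 0.42 in WT on ND. The same difference for Gapdh stayed between −0.28 and −0.19 in all 12 arrays. With the mean of both as a covariate the averaged differences were −3.31 for Dnajb1, −2.88 for Hspa1a and −2.64 for Hspa1b. The calls were then 4 of 9 averaged over genotypes (Hspa1a, Hspa1b, Dnajb1 and Hsf2), 3 in KO and 0 in WT, where 186 of all genes passed instead of 687. The WT differences with the covariate were −3.04 for Dnajb1 (adjusted p = 0.0808, limma), −2.41 for Hspa1a (adjusted p = 0.0877), −2.08 for Hspa1b (adjusted p = 0.131) and −0.75 for Hsf2 (adjusted p = 0.157), close to those without it. Among the averaged calls lost, Bag3 was at −0.97 (adjusted p = 0.0610), Hsp90aa1 at −1.65 (adjusted p = 0.0924), Dnaja1 at −1.24 (adjusted p = 0.140) and Hspa8 at −0.31 (adjusted p = 0.136).

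No member was called between KO and WT. On HFD 0 of 9 members differed between KO and WT (0.732% of all genes were called), and on ND 0 of 9 (0.414% of all genes). Hspa1b was the 1 member with an unadjusted p under 0.05 on HFD, at a log2 difference of −1.18 ± 0.46 (SE, adjusted p = 0.249, limma); on ND there were 0. Hspa1b averaged 9.55 ± 0.65 in KO and 10.74 ± 1.14 in WT on HFD (SD, n = 3 each), and the groups overlapped through WT mouse 3. Averaged over diets, 0 of 9 differed by genotype, also at an unadjusted p under 0.05 (1.61% of all genes were called).

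Whether the diet response depended on genotype was tested by the interaction, KO diet effect minus WT diet effect. It passed in 0 of 9 members in limma, with 0 at an unadjusted p under 0.05 (0.141% of all genes were called). The intervals are wide: −0.95 for Hspa1a (95% interval −2.34 to 0.44), −1.11 for Hspa1b (−2.51 to 0.29) and −0.56 for Dnajb1 (−2.25 to 1.14). For Hsf2 the interval was narrower, at 0.03 (−0.52 to 0.58). The intervals of the Hsp70 copies hold 0 and also a fall 1 log2 unit larger in KO. With 3 mice per group these were not told apart.

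Relatives were then compared on the same array, where array scaling cancels: the inducible against the constitutive Hsp70, and the Hsp40 Dnajb1 against Dnaja1, which is also present at rest. Hspa1a minus Hspa8 was −3.59, −4.18 and −3.76 in KO mice on HFD and −0.22, −1.16 and −1.44 in KO mice on ND. In WT mice it was −2.68, −2.69 and −3.81 on HFD and −1.65, −0.52 and −0.55 on ND. Every HFD mouse was lower than every ND mouse. By the brightest probe set of each, the inducible Hsp70 fell by 2.53 log2 units more than the constitutive one (exact permutation of diet within genotype, two-sided, p = 0.005, the smallest that 400 labellings allow, and 0.005 adjusted over 2 pairs). That Hspa8 probe set had the smallest averaged fall, −0.32 against −0.59, −0.70 and −0.90 in the dimmer ones, so these would give a smaller gap.

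Dnajb1 minus Dnaja1 was −1.51, −2.21 and −1.70 in KO mice on HFD and 0.30, 0.78 and 0.11 in KO mice on ND. In WT mice it was −2.38, −1.92 and −0.78 on HFD and −0.20, 0.24 and 0.43 on ND. Dnajb1 fell by 2.03 more than Dnaja1 (exact permutation, two-sided, p = 0.005, adjusted 0.005). The pair of Hsp90aa1 with Hsp90ab1 could not be compared for want of a named Hsp90ab1 probe set. Both pairs were chosen with the genes' diet effects known, so the test describes their sizes and is no independent support.

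**Figure D3:**
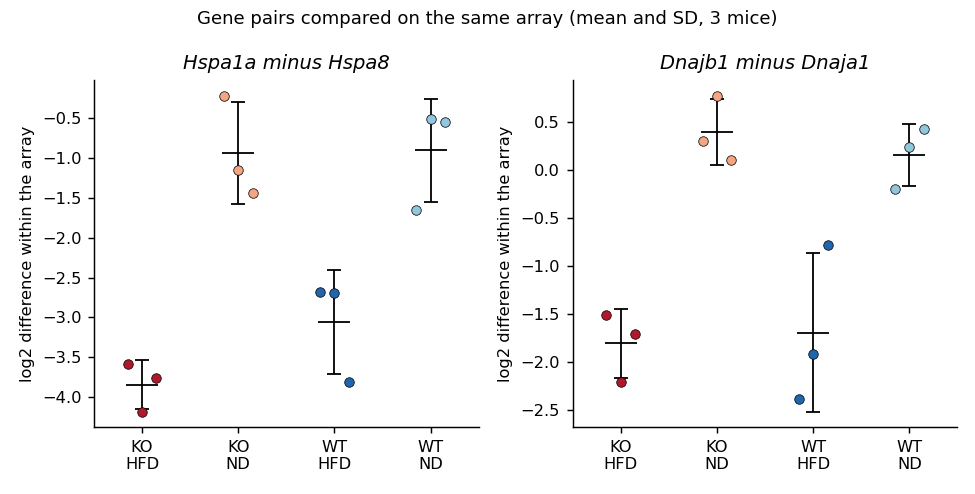
Within-array log2 difference (vertical axis) between an inducible gene and its relative in each mouse, by the brightest probe set of each gene, with the mean and SD of 3 mice per group. For Hspa1a minus Hspa8 the 6 HFD mice lie between −4.18 and −2.68 and the 6 ND mice between −1.65 and −0.22.

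Other chaperones were called about as often as genes in general. Of 17 measured cytosolic constitutive chaperones and chaperonin subunits, 1 rose and 2 fell averaged over genotypes (13.7% of all genes were called in that comparison). Hspa4, an Hsp110 relative of Hsph1, fell by 0.30 (SE 0.09, adjusted p = 0.0432, limma), and Dnaja2, a relative of Dnaja1, had a difference of −0.20 (adjusted p = 0.0401). St13, which binds Hsp70, rose by 0.32 (adjusted p = 0.0244). The 8 chaperonin subunits Tcp1 to Cct8 lay between −0.13 and 0.06, and none passed. The list's median was −0.01.

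Of 18 measured cochaperones and Hsf1 pathway genes 2 fell and 0 rose. Fkbp5, an Hsp90 cochaperone that glucocorticoids induce, fell by 1.10 (SE 0.14, adjusted p = 0.000381, limma), and Dnajb4, an Hsp40 of the same subfamily as Dnajb1, had a difference of −0.71 (SE 0.19, adjusted p = 0.0295, limma). Dnajb4 read 10.43, 10.01 and 10.24 in KO mice on HFD, against 11.52, 10.85 and 10.77 in KO mice on ND. In WT it read 10.10, 10.52 and 9.66 on HFD and 10.07, 10.81 and 11.18 on ND, where the diets overlapped. Stip1 (−0.16), Ahsa1 (−0.05) and Chordc1 (0.01), which serve Hsp90 and are known heat-shock targets, did not pass. Hsf1 had no named probe set in the annotation used.

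The organelle chaperones are set against the same 13.7% of all genes called. Of 7 mitochondrial chaperones 1 rose, Dnaja3 at 0.26 (adjusted p = 0.0397, limma), and Hspd1 (−0.06) and Hspa9 (−0.14) did not pass. Among 12 chaperones of the endoplasmic reticulum 2 rose, Pdia4 at 0.77 (adjusted p = 0.0211) and Hyou1 at 0.39 (adjusted p = 0.0462), and Dnajb9, an Hsp40 of that compartment, fell by 0.65 (adjusted p = 0.00242). Hspa5, its Hsp70, was at −0.10 and did not pass.

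**Figure D4:**
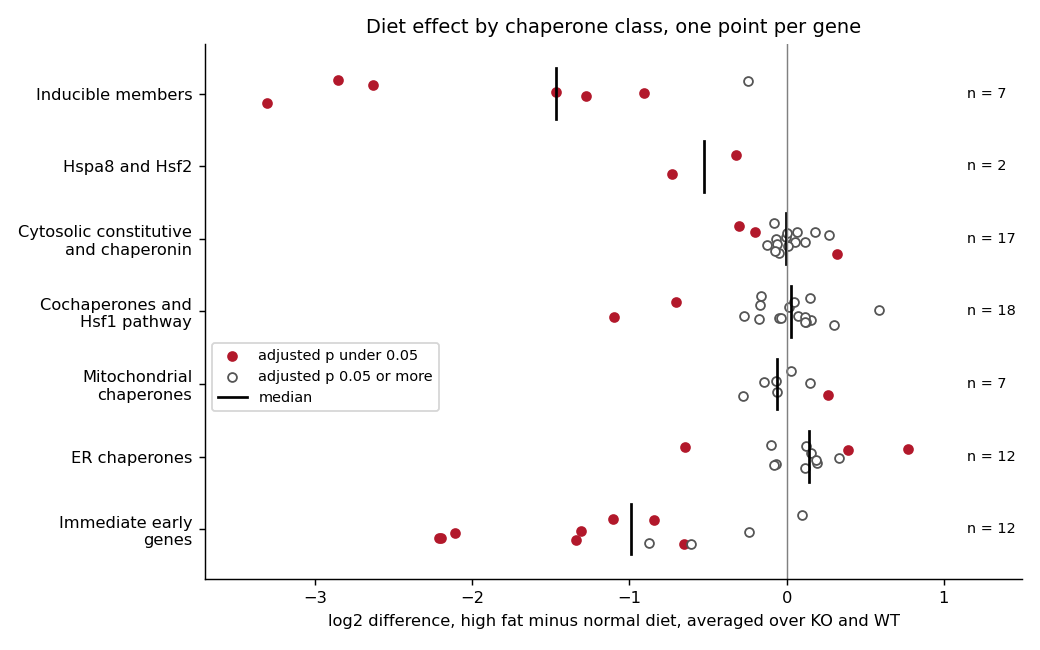
Averaged log2 difference between high fat and normal diet (horizontal axis) of each gene, by class, with the class median as a bar; filled points have an adjusted p under 0.05. The inducible members have a median of −1.47 and the cytosolic constitutive class −0.01.

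Immediate early genes, which are transcribed within minutes of a stimulus, were also often lower on HFD. Of 12, 8 fell averaged over genotypes (6.19% of all genes were called lower) and 0 rose. The largest falls were in Maff at −2.21 (adjusted p = 5.38e-05, limma), Btg2 at −2.20 (adjusted p = 7.55e-05) and Atf3 at −2.11 (adjusted p = 0.0101). In WT 8 of 12 fell (2.99% of all genes) and in KO 3 of 12 (1.88%), while the interaction passed in 0. On HFD 2 of 12 were higher in KO than in WT, where no member was called (0.732% of all genes). They were Egr1 at 1.65 (adjusted p = 0.0406, limma) and Ier2 at 1.41 (adjusted p = 0.0277). Their summed linear signal was 4205 to 8017 in KO on HFD and 10999 to 13577 in KO on ND, and 4126 to 5956 in WT on HFD and 10395 to 12336 in WT on ND. The summed signal of the 7 inducible members was 3642 to 6773 in KO on HFD and 13729 to 33115 in KO on ND, and 4150 to 8257 in WT on HFD and 11872 to 26041 in WT on ND. Both sums separated the diets without overlap, and the part of the one in the other was not tested.

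Markers of other cells also moved with diet. The 6 macrophage markers, all measured, summed to 3666 to 6983 in KO on HFD and 2117 to 2850 in KO on ND, with 3 of 6 higher (Lgals3, Adgre1 and Lyz2). In WT they summed to 1648 to 3564 on HFD and 2941 to 3398 on ND, with 0 of 6 called in limma. The 4 measured adipocyte markers of 6 summed to 15365 to 16999 in KO on HFD and 7019 to 11010 in KO on ND, and to 8512 to 15256 in WT on HFD and 7413 to 8959 in WT on ND. In KO 1 of 4, Fabp4, was called higher (2.66% of all genes), and in WT 0 (3.07%). The 5 fibroblast markers, all measured, summed to 10044 to 13302 in KO on HFD and 8066 to 8476 in KO on ND, and to 6419 to 9014 in WT on HFD and 7577 to 8378 in WT on ND. In KO 2 of 5, Col1a1 and Col3a1, were called higher, and in WT 0. Muscle fibre markers summed to 113681 to 123118 in KO on HFD and 100230 to 121403 in KO on ND, and to 110845 to 126901 in WT on HFD and 105133 to 109869 in WT on ND. The 3 measured Schwann cell markers of 5 had lower values on HFD, as the chaperones did, with sums of 434 to 849 in KO on HFD and 780 to 879 in KO on ND, and of 397 to 457 in WT on HFD and 467 to 697 in WT on ND. None passed within a genotype, and Mal passed in the average (−0.84, adjusted p = 0.0345, limma). The 5 endothelial markers, all measured, summed to 759 to 989 in KO on HFD and 673 to 840 in KO on ND, and to 789 to 895 in WT on HFD and 587 to 810 in WT on ND, with 1 of 5 called in WT (Kdr at 1.24, adjusted p = 0.0308). Of 3 tested granulocyte and lymphocyte markers, Ptprc was higher on HFD in KO (1.22, adjusted p = 0.0360, limma), and 0 were called in WT. Smooth muscle markers, 4 tested, had 0 called in either genotype. The part of any of these cells in the result was not tested.

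Members often shared the order of the mice within a group, but the share of all genes with the same order was not computed. Outside the set, Hspe1 read 11.74, 11.01 and 10.77 in KO mice 1 to 3 on ND, while Hspa9 read 10.59, 10.57 and 10.76. The array medians of these 3 mice were 4.11, 4.01 and 3.87. KO mouse 1 on ND was the highest of its group for 8 of 9 members, and KO mouse 3 on ND the lowest for 8. WT mouse 1 on ND was the lowest of its group for all 9 members measured. KO mouse 2 on HFD was the lowest for 7 and KO mouse 1 on HFD the highest for 7. WT mice on HFD broke the pattern: mouse 1 was highest for 6 members but lowest for Dnajb1 and Hsf2.

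The spread within groups differed between members and groups. The members whose range was wider than the all-gene median numbered 8 of 9 in KO on HFD, 8 in KO on ND, 5 in WT on HFD and 9 in WT on ND. Among KO mice on ND, Dnajb1 ranged over 2.29 log2 units, more than 99.0% of genes or equal to them, Dnaja1 over 2.09 and Hsp90aa1 over 1.97, against a median range of 0.35. Hspa8 ranged over 0.29 and Hsf2 over 0.35 in that group. Among WT mice on HFD Hspa1b ranged over 2.10, but Dnaja1 over 0.35, Hspa8 over 0.25, Bag3 over 0.25 and Hsf2 over 0.23, against a median range of 0.40. The immediate early sum did not follow this order in every group. In WT mice on ND the inducible sum was 11872, 23377 and 26041 in mice 1 to 3, while the immediate early sum was 12336, 11261 and 10395. In KO mice on ND both were highest in mouse 1 and lowest in mouse 3.

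**Figure D5:**
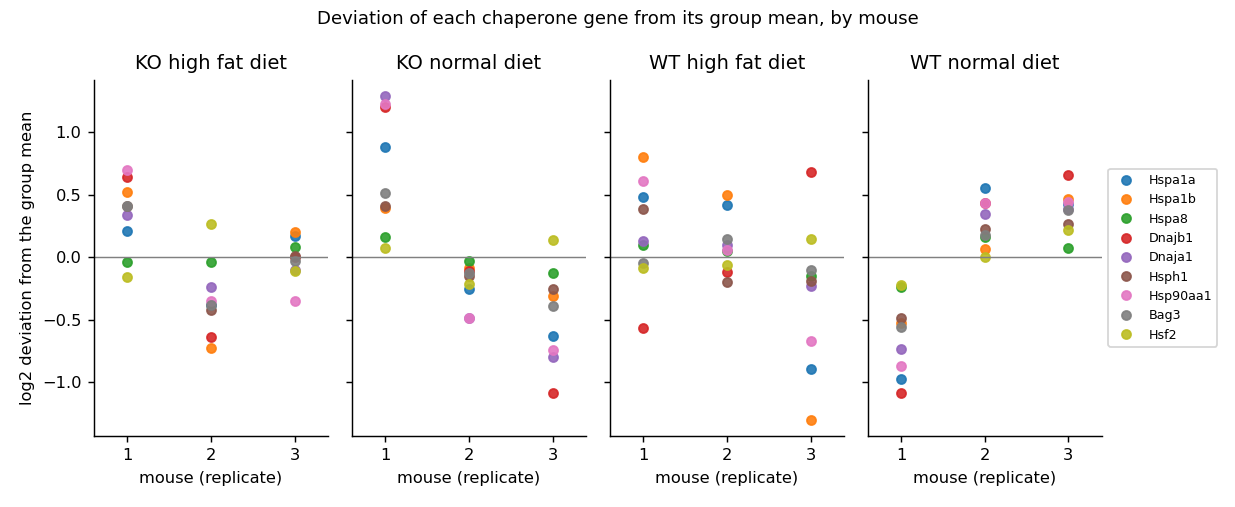
Deviation of each gene from the mean of its own group (vertical axis, log2) in each mouse, 1 panel per group. KO mouse 1 and WT mouse 1 on normal diet lie to opposite sides of 0 for all 9 genes, and Dnajb1 runs against Hspa1b among WT mice on high fat diet.

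The genes most like the set were found by Pearson correlation over the 12 arrays with the mean standardised value of Hspa1a, Hspa1b, Dnajb1 and Hsph1. The arrays share diet and group differences, so the values only describe likeness. Among non-members the highest were Srfbp1 (0.938), Ifrd1 (0.934), Ier5 (0.925), Jmjd1c (0.924), 2310057M21Rik (0.919) and Aopep (0.919). Ifrd1 averaged 8.84 ± 0.44 in KO on HFD, against 10.47 ± 0.37 in KO on ND, and 9.06 ± 0.29 in WT on HFD, against 10.62 ± 0.48 in WT on ND (SD, n = 3). Among members outside that mean, Hsp90aa1 had 0.949, Dnaja1 0.932, Bag3 0.902, Hspa8 0.891 and Hsf2 0.754. Hsph1 correlated at 0.726 although it entered the mean.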

How the data were processed

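The deposited table holds 1 column of log2 values per array, made by the authors with MAS5 per the submitters' processing notes, which name no version or further step. On the linear scale all 12 arrays share the same trimmed mean, and the values were used as deposited. Of 45101 probe sets 64 controls were left out. A platform annotation gave 1 gene symbol to 34945 of the other 45037 and more than 1 to 932, leaving 9160 unnamed. Those with a mean above the median of 3.78 were kept (22518), and the brightest per symbol gave 11345 genes.

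One model with 4 group means was fitted in limma 3.58.1 (R 4.3.3) with an intensity trend and 7 contrasts, and p-values were adjusted by Benjamini-Hochberg over all genes in each contrast, with a threshold of 0.05. It was tested on simulated data. SE and intervals come from that fit. Probe set results come from the same fit over all 45037. Summed signals add linear values of each list's brightest probe sets. Promoter windows came from RefSeq (GRCm38.p6). The members, gene lists and pairs were chosen with earlier results of these data known. Named genes are all members, up to 4 passing genes and up to 3 others per list and comparison, and the 6 most and 3 least similar genes; other values were named after they were seen. Figures were made with matplotlib 3.10.9 in Python 3.11.15.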

Additional observations from a re-analysis of the deposited data

How the results depend on the processing

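The averaged count of 8 members lower was 7 or 8 under every setting that gave one (a fit of only the groups compared gives none) except the RNA quality covariate, where it was 4, with 522 of all genes called instead of 1552. The KO count of 5 was 3 without the intensity filter, 3 without the intensity trend and 3 with the covariate. In those settings 365, 232 and 265 of all genes were called in KO, against 515. The WT count of 4 was 0 with the covariate, with differences close to those without it (Dnajb1 −3.04, Hspa1a −2.41, Hspa1b −2.08, Hsf2 −0.75). With 1 mouse left out the counts ran from 3 to 6 in KO, from 1 to 7 in WT and stayed at 8 averaged over genotypes; those for the KO effects and the interaction stayed at 0, as under every other setting run. Fewer samples enter those fits, and the WT count of 1 came with 199 of all genes called, against 687. The cause of the other changes was not tested. The second Hsf2 probe set turned its KO difference to 0.0248 (adjusted p = 0.981); no other called difference of a member changed sign. Hsph1 in KO, not called, kept its sign in 19 of 23 alternatives. Hspa1a minus Hspa8 ran from −2.71 to −2.34 and Dnajb1 minus Dnaja1 from −2.25 to −1.85 with 1 mouse left out (exact permutation p = 0.005 to 0.01). Median centring moved the median difference of all genes in KO to −0.06, against 0.05 as deposited, and the KO and WT counts were then 7 and 5. No paired analysis was possible because the groups share no mouse numbers. No probe set with several symbols named a member, so that alternative gave no value, nor did the pair with Hsp90ab1. Offsets were set at 1.14 and 16.5 on the linear scale. All measured members lay above the filter, with Hsf2 the dimmest.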

Other observations

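Some chaperones of the endoplasmic reticulum were higher in KO. Averaged over diets, 2 of 12 were higher in KO and 0 lower (1.61% of all genes were called), namely Sdf2l1, a stress-induced component of that compartment, at 1.02 ± 0.19 (SE, adjusted p = 0.0188, limma), and Pdia3, a disulfide isomerase, at 0.52 ± 0.11 (adjusted p = 0.0299, limma). All 12 had a positive difference, with a median of 0.42, against 0.02 for all genes, and 9 had an unadjusted p under 0.05. Their summed linear signal was 6428 to 8951 in KO and 5284 to 6296 in WT on HFD, and 6994 to 7610 in KO and 5785 to 6575 in WT on ND, without overlap on either diet. The share of all genes with a positive difference, or with an unadjusted p under 0.05, was not computed. The difference between this class and the members was not tested.

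The genes least like the chaperone mean over the 12 arrays were Smim13 (r = −0.956), Ptprs (−0.942), a receptor tyrosine phosphatase, and Naxe (−0.938). Ptprs averaged 7.29 ± 0.22 in KO on HFD, against 6.45 ± 0.19 in KO on ND, and 6.88 ± 0.19 in WT on HFD, against 6.12 ± 0.33 in WT on ND (SD, n = 3).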
